A study of Rattus norvegicus with 8 samples.

Results

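The genes described here encode 7 heat shock proteins and chaperones of the rat, Hspa1b, Hspa8, Hsph1, Hsp90aa1, Dnajb1, Hspb1 and Hspe1, which were chosen by gene symbol from the 32754 gene rows of the count matrices. They occupy 8 rows, because Hspa8 is listed under 2 identifiers (ENSRNOG00000034066, which carried nearly all of its counts, and ENSRNOG00000032585). The cells were liver immune cells of male Han Wistar rats on a choline-deficient, L-amino acid-defined diet (CDAA, animals PC1 and PC2) or the choline-sufficient diet (CSAA, animals NC1 and NC2). From each of the 4 animals 1 portion was profiled fresh and 1 after 3 weeks of DMSO cryopreservation, by 10x Genomics 3′ single-cell RNA-seq, which gave 8 libraries. Fresh and preserved cells of an animal share the liver, and no group holds more than 2 animals per diet. Age and the duration of the diet are not given in the sources used here.

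Heat shock proteins are molecular chaperones that keep other proteins folded. Hspa8 is the constitutive cytosolic HSP70, Hspa1b is its stress-inducible relative, Dnajb1 is an HSP40 cochaperone that delivers clients to HSP70, and Hsph1 is an HSP110 that exchanges its nucleotide. Hsp90aa1 is the inducible cytosolic HSP90, Hspb1 is a small heat shock protein that holds unfolded clients, and Hspe1 is the mitochondrial partner of the chaperonin Hspd1. Under proteotoxic stress the transcription factor HSF1 binds heat shock elements in the promoters of such genes.

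The promoter windows below are shown for the heat shock element, the sequence that HSF1 binds. RefSeq promoters (build GRCr8, 250 bases before to 50 after the start of each gene) were at hand for 5 of the 7 members, Hspa8, Hspe1, Hsph1, Hspb1 and Dnajb1. The element was searched as GAANNTTC or TTCNNGAA, which read the same on both strands and overlap when several units follow each other. Each line gives 30 bases upstream of the start, written 5′ to 3′ on the strand of the gene, with the matches in capitals.
Hspa8 (chr8:50080451-50080480, plus strand, bases -63 to -34 from the start): cggaacccTTCTGGAAGGTTCtaagacagg
Hspe1 (chr9:64084256-64084285, plus strand, bases -71 to -42): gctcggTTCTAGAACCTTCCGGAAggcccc
Hsph1 (chr12:10427324-10427353, plus strand, bases -44 to -15): gccgcagaTTCTGGAAAGTTCtcctcagta
Hspb1 (chr12:26432402-26432431, minus strand, bases -130 to -101): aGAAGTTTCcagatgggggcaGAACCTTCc
Dnajb1 (chr19:41431142-41431171, minus strand, bases -30 to -1): cgacgcatcgggaggggcgGAAGGTTCtgg
Every one of these 5 windows of 300 bases held at least 2 matches, against 15.9% of all 33469 promoters that held at least 1. A run of 3 alternating units was present for Hspa8, Hspe1 and Hsph1 and in 0.798% of all promoters. The Hspe1 window is at the same time the promoter of Hspd1 on the opposite strand, since these genes lie head to head. The matches describe letters in a window and say nothing of binding in these cells.

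The libraries held 18338700 to 26471843 UMIs, and 3673 to 4771 barcodes per library had at least 500 UMIs and were taken as cells. Any pair of libraries shared 13 to 36 cell barcodes. Cells were assigned to a lineage gate when they carried UMIs of exactly 1 of 7 markers, Clec4f (Kupffer cells), Clec4a3 (a myeloid marker), Vcan (monocytes), Siglech (plasmacytoid dendritic cells), Cd79a (B cells), Cd3e (T cells) and Ncr1 (natural killer cells). In each gate at least 3 further markers of that lineage had their highest level among the gates, but 33.3% to 45.9% of the cells of a library carried UMIs of more than 1 gate marker and entered no gate. The smallest gates were Clec4f, with 23 to 78 cells per library, and Vcan, with 33 to 154. Levels are given as CPM, counts scaled to the TMM-normalised library size, and as raw CPM where they were scaled to the plain total of UMIs in the same barcodes. The Clec4f gate did not hold Kupffer cell RNA alone. Over all libraries its natural killer markers Nkg7, Prf1 and Klrd1 reached 1465, 1031 and 512 raw CPM, beside 1379 and 1191 for the Kupffer markers C1qb and C1qc. In the Ncr1 gate these natural killer markers reached 3528, 2437 and 1256 raw CPM. The other gates were not pure either. Nkg7 reached 728.2, 957.4, 972, 771.5 and 1090 raw CPM in the Clec4a3, Vcan, Siglech, Cd79a and Cd3e gates. C1qb reached 149.5 to 312.9 raw CPM in the gates other than Clec4f. Lineage names used below stand for these gates and not for pure cells. Only 2 to 15 Clec4f gate cells per library had at least 2 Clec4f UMIs.

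Cryopreservation was followed by higher Hsp90aa1 and Dnajb1, while the most abundant member, Hspa8, moved little. Hsp90aa1 measured 85.9, 78.0, 92.9 and 107 CPM in fresh NC1, NC2, PC1 and PC2 and 116, 121, 129 and 136 CPM in the preserved cells of the same animals. Every preserved library was above every fresh library. The log2 fold change was 0.47 ± 0.06 (SE, n = 4 pairs), with an adjusted p of 0.00310 in edgeR's quasi-likelihood test with animal as a block and Benjamini-Hochberg adjustment over 12163 genes. Levels over all cells also carry shifts in cell make-up. Ncr1 gate cells numbered 395, 494, 344 and 502 in fresh NC1, NC2, PC1 and PC2 and 148, 185, 314 and 640 after preservation. The part of such shifts was not tested.

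Dnajb1 measured 49.6, 45.2, 48.7 and 45.2 CPM in the fresh libraries of NC1, NC2, PC1 and PC2 and 63.1, 77.4, 55.7 and 72.1 CPM after preservation. The groups did not overlap here either, and the difference was smallest in PC1. Its log2 fold change was 0.50 ± 0.09 (edgeR adjusted p = 0.0143). The adjusted p rose to 0.0901 without NC2 and to 0.0731 without PC2, so the call depended on NC2 and PC2.

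Hspa8 was already high in fresh cells. It measured 547, 642, 708 and 834 CPM in fresh NC1, NC2, PC1 and PC2 and 718, 762, 754 and 863 CPM after preservation. It was higher in 4 of 4 animals, the groups overlapped, and its log2 fold change of 0.19 ± 0.06 did not pass the test (edgeR adjusted p = 0.0824). Without the filter on low counts it passed (edgeR adjusted p = 0.0337). The second Hspa8 row held 0.348 to 0.685 CPM before and 0.607 to 1.38 CPM after preservation (adjusted p = 0.144). How reads shared between near-identical copies were counted is not known here.

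Hsph1 and Hspe1 gave no call. Hsph1 measured 15.6, 16.1, 16.0 and 19.4 CPM in fresh and 17.0, 16.6, 18.3 and 23.1 CPM in preserved cells, with a log2 fold change of 0.15 ± 0.07 (adjusted p = 0.225). Hspe1 measured 135, 167, 158 and 160 CPM in fresh NC1, NC2, PC1 and PC2 and 161, 159, 139 and 136 CPM after preservation. It was higher in NC1 and lower in the other 3 animals, and its log2 fold change was -0.05 ± 0.08 (adjusted p = 0.706). Hspd1, which shares the promoter region printed above, was higher in 4 of 4 animals, with a log2 fold change of 0.25 ± 0.05 (adjusted p = 0.0204, but 0.132 without NC2 and 0.0788 without PC2). The difference between the changes of Hspd1 and Hspe1 was not tested.

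**Figure D1:**
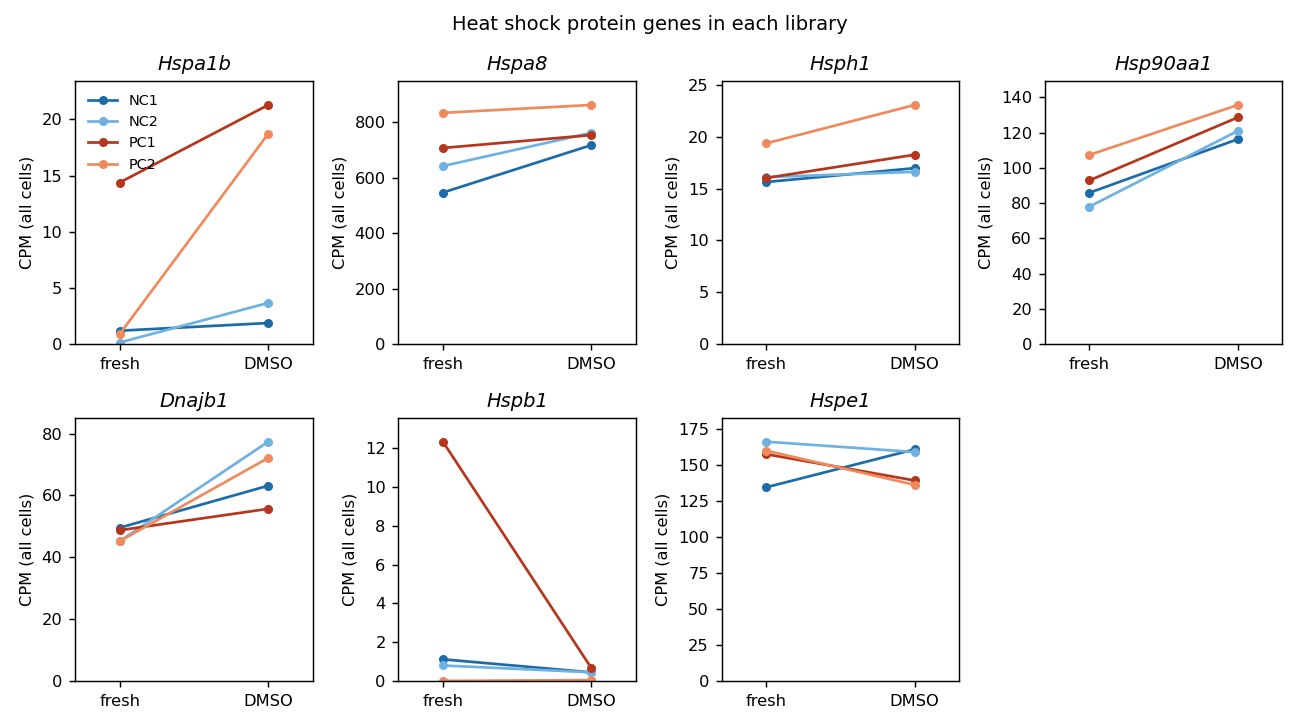
Level of the 7 members in each library as CPM over all cells, with a line from the fresh to the DMSO library of each animal. Hsp90aa1 and Dnajb1 were higher in every DMSO library than in any fresh library, while Hspa1b and Hspb1 stayed below 22 CPM, with Hspb1 high in PC1 fresh alone and Hspa1b in PC1 fresh, PC1 DMSO and PC2 DMSO.

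Of the 8 member rows, all of which passed the filter on low counts, 2 were called higher (background 4.32% of 12163 genes called higher) and 1, Hspb1, was called lower (background 3.92% called lower). With a change of at least 2-fold as well, Hspb1 alone was left (background 0.847% in either direction). Hspb1 held 25, 16, 288 and 0 UMIs in fresh NC1, NC2, PC1 and PC2 and 7, 7, 14 and 1 after preservation. It passed the filter mostly through fresh libraries in which it was high. Its call is included in these counts but is no test of a fall. The median log2 fold change was 0.33 over the member rows and -0.0033 over all genes tested. The member rows count Hspa8 in both of its rows. With its main row alone, the median over the 7 genes was the value of Hspa8, 0.19. DESeq2 called Hsp90aa1 and Dnajb1 but not Hspb1 (log2 fold change -1.54, adjusted p = 0.427). Without the animal block edgeR called 0 of the 8 rows, with 4 at an unadjusted p under 0.05, and 16 genes in all.

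Markers listed for cells other than immune cells moved with preservation in part. The 7 hepatocyte markers summed to 8.73 to 24.7 raw CPM in fresh and 2.09 to 8.4 in preserved libraries, and the 6 endothelial markers to 76.8 to 199 and 76.9 to 197. Of the endothelial markers, Kdr and Lyve1 were highest in the Siglech gate of immune cells. There they made up 219.9 and 35.2 raw CPM over all libraries, against 28.8 to 45.2 and 11.8 to 29.2 in the other gates. The endothelial sum is thus not a measure of non-immune cells alone. The 5 bile duct markers summed to 2.46 to 6.41 and 2.09 to 4.48 raw CPM, and the 5 stellate cell and fibroblast markers to at most 0.612. In cells with fewer than 2 UMIs of hepatocyte, endothelial, stellate and bile duct markers, Hsp90aa1 and Dnajb1 kept log2 fold changes of 0.46 and 0.49 (adjusted p = 0.00183 and 0.0121). Because of Kdr and Lyve1 this cut can also remove plasmacytoid dendritic cells, so it does not single out non-immune cells.

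Near-empty barcodes with 1 to 100 UMIs, which carry free RNA, also held more Hsp90aa1 and Dnajb1 after preservation. Hsp90aa1 made up 85.0 to 113 raw CPM in fresh and 124 to 153 in DMSO near-empty barcodes. Dnajb1 made up 37.9 to 59.2 raw CPM in fresh and 59.1 to 83.6 in DMSO near-empty barcodes, higher in 4 of 4 animals. Hspa8, by contrast, was lower in near-empty barcodes than in cells in all 8 libraries (401 to 541 against 570 to 877 raw CPM). The part of free RNA in the differences was not tested.

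**Figure D2:**
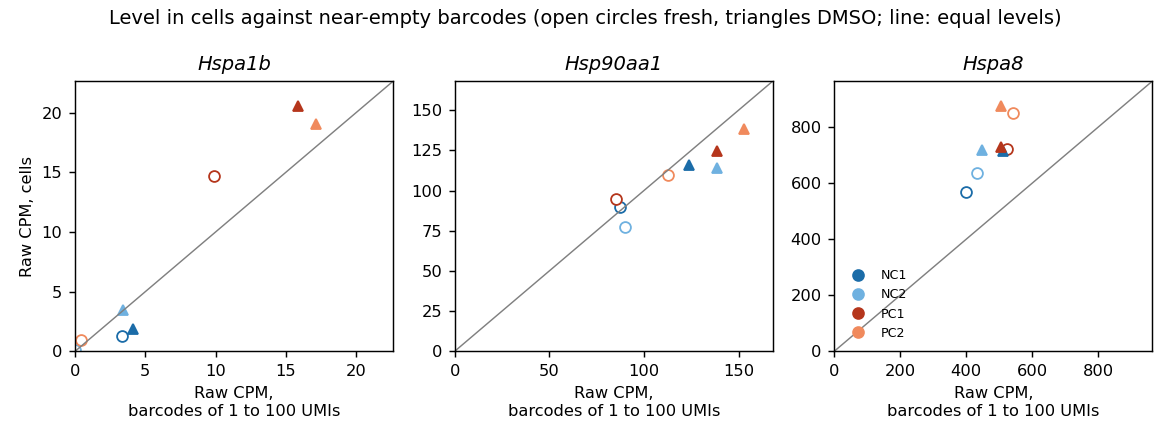
Raw CPM of Hspa1b, Hsp90aa1 and Hspa8 in cells (vertical) against near-empty barcodes of 1 to 100 UMIs (horizontal), 1 point per library, with the line of equal levels. Hspa8 lies above the line in all 8 libraries, and the DMSO libraries lie to the right of the fresh ones for Hsp90aa1.

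The share of cells with at least 1 UMI was computed at a fixed depth of 500 UMIs per cell. The expected share was 4.06% ± 0.409 in fresh and 5.27% ± 0.431 in preserved libraries for Hsp90aa1, and 2.30% ± 0.224 and 3.46% ± 0.466 for Dnajb1 (mean ± SD, n = 4), each higher after preservation in 4 of 4 animals. The exact permutation of signs over 4 pairs gave p = 0.125 for both genes, which is the smallest value it can give (0.219 after Benjamini-Hochberg adjustment over 7 genes), so no share can reach 0.05. Without thinning the shares were 30.05% and 35.5% for Hsp90aa1 and 19.6% and 24.5% for Dnajb1. For Hsp90aa1 the thinned share lay at or below the share that near-empty barcodes of the same library would give in all 8 libraries. The near-empty share was computed from 1 pooled profile. Differences between cells lower a share over single cells even at an equal level, so the comparison cannot place cells against free RNA. As raw CPM, Hsp90aa1 was higher in cells than in near-empty barcodes in NC1 fresh (89.5 against 87.1) and PC1 fresh (94.9 against 85.0). It was lower in the other libraries. The same limit holds for Dnajb1. The Dnajb1 share lay above that of near-empty barcodes in 5 libraries and below it in NC1 fresh (2.50% against 2.92%), NC2 DMSO (3.84% against 4.09%) and PC1 DMSO (2.84% against 2.91%).

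The other genes of the chaperone network were followed in lists by family. The lists of the HSP70, HSP90, HSP40, small heat shock protein, chaperonin, cochaperone, heat shock factor, endoplasmic reticulum and mitochondrial chaperone families held 84 genes, of which 76 were tested, 7 were called higher and 1 lower, against the background of 4.32% called higher and 3.92% called lower over all genes. Their median log2 fold change was 0.12, against -0.0033 over all genes. The largest calls lay in the endoplasmic reticulum list, which also held transcription factors of stress responses. Hspa5, the chaperone BiP, rose from 170 ± 56.6 to 249 ± 47.7 CPM (SD, n = 4), with a log2 fold change of 0.58 ± 0.07 (adjusted p = 0.00320). The transcription factor Atf4, of the integrated stress response, rose by 0.58 ± 0.06 on the log2 scale (adjusted p = 0.00130), Dnajb9, an HSP40 of the endoplasmic reticulum, by 0.31 ± 0.06 (adjusted p = 0.0197), and the lectin chaperone Calr by 0.29 ± 0.06 (adjusted p = 0.0169). These were the 4 called among the 18 genes of this list, of which 13 had an unadjusted p under 0.05 in edgeR's test. The transcription factors Ddit3 and Xbp1 of this list, named after their values were seen, were not called (log2 fold change 0.0024 and 0.046). A stress response of the endoplasmic reticulum was not tested. Of 13 listed HSP40 genes Dnajc7 was called higher, and of 9 chaperonin genes Hspd1 and Cct4, with log2 fold changes of 0.23 to 0.25. Dnajc7, Cct4 and Hsf1 were named after their values were seen. Outside the members, edgeR called 0 of 6 listed HSP70 and 0 of 3 HSP90 genes. It called 0 of 4 small heat shock protein and 0 of 16 cochaperone genes. In this order 2, 2, 0 and 2 genes had an unadjusted p under 0.05, and DESeq2 called 0 in each list. The HSP70 and HSP40 lists left out Hspa5, itself an HSP70, and Dnajb9, which were counted in the endoplasmic reticulum list. The transcription factor Hsf2 was the gene called lower, with a log2 fold change of -0.49 ± 0.12 (adjusted p = 0.0406), lower in 4 of 4 animals. Without NC2 the calls of Dnajb9, Calr, Hspd1, Cct4, Dnajc7 and Hsf2 were lost (adjusted p from 0.0937 to 0.193), as were those of Dnajb9, Calr, Cct4 and Dnajc7 without PC1 (0.0584 to 0.125) and those of Dnajb9, Hspd1, Cct4 and Hsf2 without PC2 (0.0606 to 0.138), whereas Hspa5 and Atf4 were called whichever animal was left out. Hsf1 itself measured 18.6 ± 1.65 CPM in fresh and 20.3 ± 3.34 CPM in preserved cells (adjusted p = 0.483).

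Within the lineage gates Hsp90aa1 and Dnajb1 were called higher in 2 gates each, while Hspa8, Hspe1 and Hsph1 passed in none. The log2 fold change was positive in all 7 gates for Hsp90aa1 (0.07 to 0.52) and for Dnajb1 (0.30 to 0.63). Some uncalled changes were as large as called ones, such as 0.56 for Dnajb1 in the Cd79a gate against 0.54 in the Ncr1 gate. Hspa1b was called in 1 gate, where it passed the filter on low counts through preserved libraries in which it was high. That call is included in the counts below but is no test of a rise. Of 49 pairs of member and gate 34 passed the filter on low counts, and 5 were called, all higher. These were Hsp90aa1 and Dnajb1 in the Siglech gate (background 2.61% of genes called), Hsp90aa1 in the Cd3e gate (1.37%), Dnajb1 in the Ncr1 gate (3.93%) and Hspa1b in the Clec4a3 gate (2.05%). No member was called by edgeR in the Clec4f (1.27%), Vcan (1.24%) or Cd79a (2.43%) gates. There the unadjusted p was under 0.05 for Hspe1 in the Clec4f gate, Hsp90aa1 in the Vcan gate and Dnajb1 in the Cd79a gate.

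In plasmacytoid dendritic cells of the Siglech gate Hsp90aa1 measured 95.1, 88.4, 99.8 and 128 CPM in fresh NC1, NC2, PC1 and PC2 and 142, 154, 152 and 146 CPM after preservation, without overlap. The log2 fold change was 0.52 ± 0.10 (edgeR adjusted p = 0.0125). Dnajb1 rose in the same gate from 48.3 ± 5.70 to 75.4 ± 16.1 CPM (SD, n = 4), with a log2 fold change of 0.63 ± 0.13 (adjusted p = 0.0187). In T cells of the Cd3e gate Hsp90aa1 measured 70.1, 60.8, 78.7 and 96.2 CPM in fresh and 85.7, 95.0, 108 and 135 CPM in preserved cells, with overlapping groups and a log2 fold change of 0.47 ± 0.11 (adjusted p = 0.0434). In natural killer cells of the Ncr1 gate Dnajb1 rose from 44.6 ± 4.41 to 64.0 ± 11.7 CPM, with a log2 fold change of 0.54 ± 0.13 (adjusted p = 0.0112). Without PC1 edgeR called 0 members in the gates, with 10 at an unadjusted p under 0.05, without NC2 1 and without PC2 3.

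Hspe1 differed in sign between gates. Its log2 fold change was -0.62 ± 0.22 in the Clec4f gate and 0.14 ± 0.12 in the Ncr1 gate. Neither passed the test (edgeR adjusted p = 0.265 and 0.656). In the Clec4f gate Hspe1 was lower in 4 of 4 animals (163 ± 29.1 CPM fresh and 110 ± 4.73 CPM preserved). These levels rest on 15, 38, 35 and 38 UMIs in fresh NC1, NC2, PC1 and PC2 and 7, 27, 29 and 10 after preservation. Counts this few carry a counting error that the SD of the preserved libraries does not show. Hspa8 ranged from -0.03 ± 0.15 in the Clec4f gate to 0.28 ± 0.09 in the Ncr1 gate (adjusted p = 0.984 and 0.0684). The difference of the change between gates, tested as lineage by preservation terms, was called for 0 of the 6 members tested (background 0.196% of 7639 genes). An unadjusted p under 0.05 was found for 2 of them, Hspe1 and Hspa1b (edgeR adjusted p = 0.389 and 0.465).

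**Figure D3:**
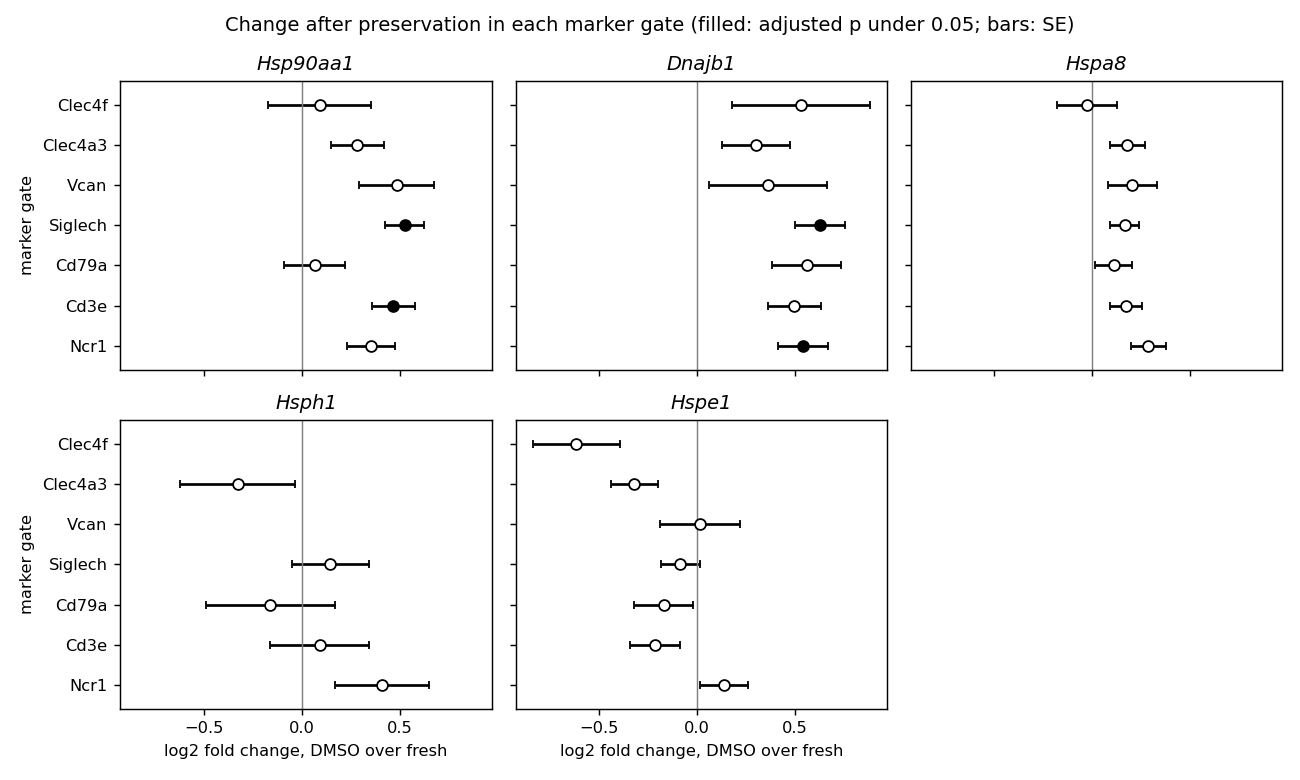
Log2 fold change of DMSO over fresh cells in each marker gate for 5 members, with SE, where filled points have an adjusted p under 0.05 in edgeR's test. Dnajb1 lies above 0 in all 7 gates, while Hspe1 spans -0.62 in the Clec4f gate to 0.14 in the Ncr1 gate.

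Resting levels differed between lineages for 4 of the 5 members tested in fresh cells, where 53.8% of 6979 genes were called, so that a difference was common among all genes. Hspe1 was highest in T cells of the Cd3e gate (171 ± 28.8 CPM, SD, n = 4) and lowest in monocytes of the Vcan gate (104 ± 22.2 CPM), and these gates did not overlap (adjusted p = 3.11e-06 over the gates). Hspa8 was highest in the Clec4f gate (722 ± 121 CPM) and lowest in the Vcan gate (499 ± 162 CPM; adjusted p = 0.000774). Hsp90aa1 was highest in the Siglech gate (103 ± 17.6 CPM) and lowest in the Cd3e gate (76.4 ± 15.0 CPM; adjusted p = 0.0337). Hsph1 was highest in the Clec4a3 gate (23.6 ± 6.08 CPM) and lowest in the Vcan gate (11.05 ± 11.3 CPM; adjusted p = 0.0311). The Vcan value of Hsph1 rests on 0, 3, 2 and 7 UMIs in fresh NC1, NC2, PC1 and PC2, too few to place that gate. Dnajb1 did not pass, with values from 54.4 ± 13.0 CPM in the Cd79a gate to 29.3 ± 17.2 CPM in the Vcan gate (adjusted p = 0.484). For each of these genes all 6 neighbours in the order of gates overlapped in range. Leaving out 1 animal left 2 or 3 members called.

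**Figure D4:**
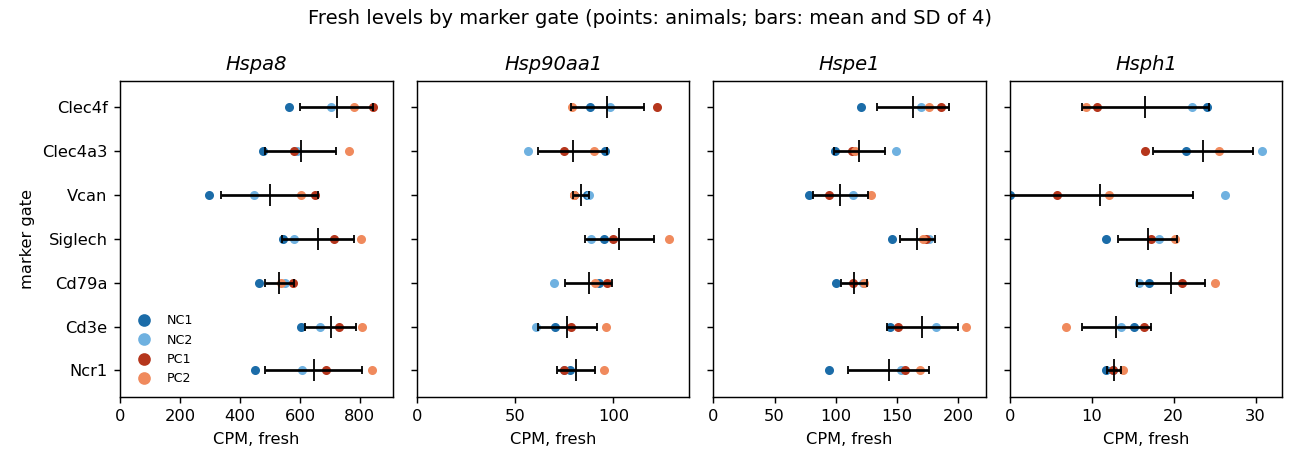
CPM of 4 members in fresh cells of each marker gate, with 1 point per animal and the mean and SD of 4 animals. Hspe1 is highest in the Cd3e gate and lowest in the Vcan gate, and neighbouring gates overlap for every gene shown.

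Across the 56 profiles of gate and library, the genes most like each member by Pearson's r of log2 CPM were as follows. Hspa8 was closest to Prim1 (r = 0.78), Ran (r = 0.74) and Snrpd1 (r = 0.73), and Hsp90aa1 to Slc3a2 (r = 0.68), Ostc (r = 0.62) and Ssr2 (r = 0.61). Hspe1 was closest to Rn50_10_0698.6 (r = 0.75), Ppia (r = 0.73) and Tecr (r = 0.71), Dnajb1 to AABR07026893.1 (r = 0.73), Actr1b (r = 0.71) and LOC100359916 (r = 0.70), and Hsph1 to RGD1305537 (r = 0.67), Wdfy4 (r = 0.65) and Bloc1s5 (r = 0.62). No member was among the 3 genes closest to another. These profiles share libraries, depth and gate cell numbers and are not independent, and Hspa1b and Hspb1 were too sparse to be included.

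Hspa1b and Hspb1 were rare transcripts, and in several libraries a single cell held a large part of their UMIs. Hspa1b had 27, 3, 336 and 22 UMIs in fresh NC1, NC2, PC1 and PC2 and 30, 58, 456 and 429 UMIs in their preserved cells. Its near-identical neighbour Hspa1a was listed with 0 UMIs in all 8 libraries, so reads of the 2 genes may not have been told apart. A single cell held 147 of the 336 UMIs in PC1 fresh, 187 of 456 in PC1 DMSO and 169 of 429 in PC2 DMSO. Hspb1 had 25, 16, 288 and 0 UMIs in fresh NC1, NC2, PC1 and PC2, where 0 allows up to 0.125 raw CPM, and 7, 7, 14 and 1 UMIs after preservation. In PC1 fresh 1 cell held 211 of the 288 UMIs.

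Cells with at least 10 UMIs of Hspa1b or of Hspb1, a limit set after the values were seen, numbered 12 in all, and 11 of them came from the 2 CDAA animals. There were 1, 0, 3 and 1 in fresh NC1, NC2, PC1 and PC2 and 0, 0, 4 and 3 in the preserved libraries. The limit was not scaled to depth, and the cells held 1391 to 32579 UMIs, at percentiles 13.2 to 99.8 of their libraries. The 3 cells with most Hspa1b UMIs stood at percentiles 97.8, 99.6 and 96.6. Median UMIs per cell were 4057 to 4309 in CDAA and 3339 to 3712.5 in CSAA libraries. The part of depth in these numbers was not tested. Summed over these 12 cells, Hspa8 made up 2401 raw CPM, against 570 to 875 in the other cells of the 8 libraries, and Hsp90aa1 812 against 77.4 to 138. Hsph1 made up 321 raw CPM against 15.4 to 23.1, and Dnajb1 164 against 44.9 to 73.1. The level of the single cell was above that of the other cells in all 8 libraries in 10 of the 12 for Hspa8 and for Hsp90aa1, in 9 for Hsph1, in 8 for Hspe1 and in 7 for Dnajb1. This sets a single cell against averages over many cells. For Hsph1, and for Bag3 below, 1 UMI was enough to pass in any of the 12 cells. The share of other cells of like depth that would pass was not computed, so these counts do not show a joint rise. A single cell held 116 of the 352 Hspa8 UMIs, and 1 cell of PC2 DMSO, with 1391 UMIs in all, held none of these 5 members. The cochaperone Bag3, a partner of HSP70, made up 164 raw CPM against 4.96 to 9.79, and Hmox1, the heme oxygenase induced by oxidative stress, 7072 against 49.6 to 202, each above all 8 libraries in 7 of the 12 cells. The cell with 211 Hspb1 UMIs held 79 Hspa1b and 116 Hspa8 UMIs and no Hmox1, whereas the 3 cells with 147, 187 and 169 Hspa1b UMIs held 102, 291 and 232 Hmox1 UMIs. Of the 12 cells 7 carried more than 1 gate marker, 3 carried none and 2 fell in a gate, and no lineage was assigned to them. These are single cells described for their own counts, with no test.

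**Figure D5:**
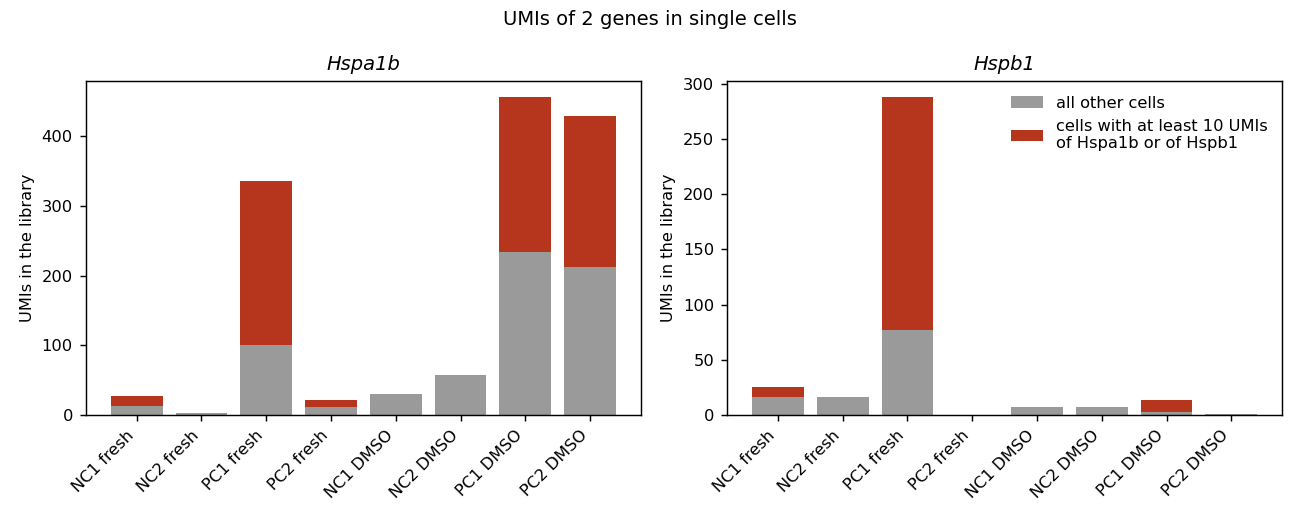
UMIs of Hspa1b and Hspb1 in each library, stacked as the cells with at least 10 UMIs of either gene and all other cells. In PC1 fresh 3 such cells held 236 of 336 Hspa1b UMIs and 211 of 288 Hspb1 UMIs.

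The tests of these 2 genes moved with those 12 cells. With all cells Hspa1b had a log2 fold change of 1.96 ± 0.58, higher in 4 of 4 animals, that did not pass (edgeR adjusted p = 0.0675), and Hspb1 one of -2.65 ± 0.65, lower in 3 of 4 animals, that did (adjusted p = 0.0373). The Hspb1 call is no test of a fall, since the gene passed the filter on low counts mostly through fresh libraries. Without the 12 cells Hspa1b had a log2 fold change of 2.52 (adjusted p = 0.0123) and Hspb1 one of -1.89 (adjusted p = 0.136). The 12 cells were picked by their counts of these same 2 genes. The values without them therefore show how much these cells weigh and are no independent test. Without PC1 the Hspb1 value was -0.92 (adjusted p = 0.411), without NC2 and without PC2 its adjusted p was 0.0582 and 0.0510, and without PC2 Hspa1b gave 1.12 (adjusted p = 0.205). Hspa1b passed without NC1 (2.06, adjusted p = 0.0327) and without PC1 (3.13, adjusted p = 0.0406). Outside the 12 cells Hspa1b made up 0.603, 0.148, 4.38 and 0.500 raw CPM in fresh NC1, NC2, PC1 and PC2 and 1.88, 3.47, 10.6 and 9.42 in preserved cells. Near-empty barcodes of the same libraries held 3.37, 0, 9.89 and 0.446 raw CPM in fresh and 4.15, 3.399, 15.9 and 17.1 in preserved samples. The level outside the 12 cells was below these values in 5 of the 8 libraries. It leaves out cells picked for their counts, so it cannot place the gene against free RNA. With all cells Hspa1b made up 1.25, 0.148, 14.7 and 0.917 raw CPM in fresh NC1, NC2, PC1 and PC2. In preserved cells it made up 1.88, 3.47, 20.6 and 19.0 raw CPM. These levels were below near-empty barcodes in NC1 fresh and NC1 DMSO. The thinned share of cells with an Hspa1b UMI, 0.1003% ± 0.135 in fresh and 0.412% ± 0.257 in preserved libraries (0.717% and 2.35% without thinning), lay below the share that near-empty barcodes would give in the same 5 libraries, and above it in NC2 fresh (0.0109% against 0), PC2 fresh (0.0399% against 0.0223%) and NC2 DMSO (0.249% against 0.170%). As for Hsp90aa1, differences between cells lower this share, so it cannot place the cells below free RNA. The near-empty values of NC2 fresh, PC2 fresh and NC2 DMSO rest on 0, 1 and 5 Hspa1b UMIs. In NC2 fresh 0 allows up to 1.81 raw CPM. Such counts are too few to place the cells of these libraries above free RNA. The part of free RNA was not tested here either.

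The Hspa1b call in the Clec4a3 gate rested on 0, 0, 7 and 0 UMIs in fresh NC1, NC2, PC1 and PC2 and 6, 0, 12 and 17 UMIs in preserved cells (log2 fold change 3.08 ± 0.68, adjusted p = 0.0300). It was the gate in which Hspa1b passed the filter, and a gene that passes through the group where it is high had to differ. In the Vcan gate all 4 fresh libraries had 0 Hspa1b UMIs and the preserved ones 0, 0, 30 and 13, with 25 of the 30 in 1 cell.

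The diets gave 1 call among the members. In preserved cells Hspa1b was higher in CDAA than in CSAA animals, 21.3 and 18.7 CPM in PC1 and PC2 against 1.88 and 3.68 CPM in NC1 and NC2, with a log2 fold change of 2.84 ± 0.31 (edgeR adjusted p = 0.0281, 2 against 2 animals). This was 1 of the 7 member rows tested, against a background of 0.642% of 11364 genes. Without the 12 cells the value was 1.86 (adjusted p = 0.0806), and with all 8 libraries in 1 fit the adjusted p was 0.237, and it was 0.188 without PC1 and 0.314 without PC2. In near-empty barcodes of preserved samples Hspa1b was also higher in both CDAA animals (15.9 and 17.1 raw CPM) than in both CSAA animals (4.15 and 3.399).

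In fresh cells no member differed between diets by edgeR (0 of 8 rows, background 1.18% of 11772 genes), with an unadjusted p under 0.05 for Hspa8 and Hspa1b. Hspa8 was 708 and 834 CPM in fresh CDAA animals and 547 and 642 CPM in fresh CSAA animals, without overlap (log2 fold change 0.40 ± 0.13, adjusted p = 0.188). Hsp90aa1 was 92.9 and 107 CPM against 85.9 and 78.0 CPM (log2 fold change 0.31 ± 0.13, adjusted p = 0.257). Hspa1b was 14.4 CPM in PC1 and 0.900 CPM in PC2, so the CDAA animals differed from each other (adjusted p = 0.243 between diets).

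The change after preservation was not called different between diets for any of the 8 rows (background 0.0329% of 12163 genes). The unadjusted p was under 0.05 for Hspa8, Hspe1 and Hspb1. The change of Hspa8 in CDAA minus that in CSAA animals was -0.25 ± 0.10 on the log2 scale (adjusted p = 0.761), and Hspe1 differed by -0.30 ± 0.12 (adjusted p = 0.761). For Hsp90aa1 the difference was -0.13 ± 0.11 (adjusted p = 0.886) and for Dnajb1 -0.13 ± 0.19 (adjusted p = 0.944).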

How the data were processed

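The deposited files held UMI counts per gene and barcode. The authors made them with Cell Ranger 2.1.1 against Rnor6.0 with Ensembl 86, per the study's methods (the submitters' processing notes also list bcl2fastq 2.17.1.14 and STAR), from 10x Chromium 3′ v2 libraries of rat liver immune cells, without normalisation. Barcodes with at least 500 UMIs were taken as cells (3673 to 4771 per library). No doublet caller was run, and cells with UMIs of more than 1 gate marker were left out of the gates. Counts were summed per library, over all cells or within a gate (fitted where every library held at least 20 cells), and tested with edgeR 4.0.16 (filterByExpr, TMM, quasi-likelihood test, animal as a block, Benjamini-Hochberg adjustment over all genes, called at an adjusted p under 0.05). SE is the log2 fold change over the square root of F. The pairing comes from the animal label, and deviations of fresh and preserved libraries from their group means correlated at 0.524 to 0.690 within animals and at -0.515 to 0.322 between animals, over 14528 genes. Diets were compared over 2 against 2 animals. Shares of cells were computed for cells thinned to 500 UMIs per cell and tested by exact permutation of signs. Floors cover counting error only, whereas SD is the spread over the 4 animals. The scripts were tested on simulated data.

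The members and gene lists were chosen with earlier results of these data known. Some further genes are not reported here. Besides the members, the text names of the other lists up to 5 called genes in each direction with the largest change, the 3 genes most like each member, and the gates with the highest and lowest level. Alternatives were DESeq2 1.42.0 (test and size factors), no filter, other cell and gate rules, no block, and leaving out each animal. Promoter sequences came from RefSeq (GRCr8), and no coordinates were converted between builds.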

Additional observations from a re-analysis of the deposited data

Results flagged for a closer look

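In 21 groups of 4 values (the 7 members, each as fresh levels, preserved levels and change), 3 held a library whose gap to the nearest other, as a share of the range, was above Dixon's critical value for 4 samples, and chance alone flags about 1 group in 20. Hspa1b reached 14.4 CPM in PC1 fresh, against 0.149 to 1.20 CPM in the other 3 fresh libraries. Hspb1 reached 12.3 CPM in PC1 fresh, against 0 to 1.11 CPM in the other 3, and 1 cell held 211 of its 288 UMIs there. Hsph1 reached 19.4 CPM in PC2 fresh, against 15.6 to 16.1 CPM in the other 3.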

How the results depend on the processing

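The number of members called in all cells, 3, became 5 without the filter on low counts, 0 without the replicate block (4 at an unadjusted p under 0.05), 1 with a change of at least 2-fold, and 1 to 4 when 1 animal was left out. The count over all genes went from 1003 to 1533 without the filter, 16 without the replicate block, 103 with 2-fold, and 181 to 1301 when 1 animal was left out. The 5 calls in gates became 9 without the filter, 0 without the replicate block (9 at an unadjusted p under 0.05), 2 with at least 2 marker UMIs (4 gates could then be fitted), 8 with the marker of most UMIs, and 0 to 8 when 1 animal was left out. The Hspa1b call between diets in preserved cells became 0 without the 12 cells (chosen after seeing the data) and 0 with all 8 libraries in 4 groups, each with 1 at an unadjusted p under 0.05, and 0 to 1 when 1 animal was left out. Between diets in fresh cells 0 to 1 were then called, and for fresh levels between gates 2 to 3. The cause of these changes was not tested.

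Several uncalled differences changed sign. The difference of the change between diets for Hspa1b, -0.07, became 0.0238 at 1000 UMIs and 0.0251 under 20% mitochondrial UMIs. With gates by the marker of most UMIs, Hspa8 in the Clec4f gate became 0.0225, Hsph1 in the Clec4a3 gate 0.25, and Hspe1 -0.0283 in the Vcan and -0.0163 in the Ncr1 gate. With all 8 libraries, Dnajb1 between diets in fresh cells became -0.0129. When 1 animal was left out, the difference of the change between diets ranged from -2.75 to 2.36 for Hspa1b, -0.39 to 0.11 for Dnajb1 and -3.23 to 4.11 for Hspb1. Hspe1 ranged from -0.17 to 0.0020 in all cells, -0.19 to 0.20 in the Vcan, -0.23 to 0.0052 in the Siglech and -0.0434 to 0.27 in the Ncr1 gate. Hsph1 ranged from -0.0067 to 0.28 in the Siglech, -0.0521 to 0.22 in the Cd3e and -0.42 to 0.0745 in the Cd79a gate, Hsp90aa1 from -0.0770 to 0.13 in the Cd79a and -0.0658 to 0.26 in the Clec4f gate, and Hspa8 from -0.0914 to 0.0723 in the Clec4f gate. Between diets in fresh cells Hspe1 ranged from -0.0257 to 0.24, Dnajb1 from -0.0728 to 0.10 and Hspb1 from -7.42 to 3.70 (the lowest value rests on 0 UMIs in PC2 and depends on the prior count), and in preserved cells Dnajb1 from -0.32 to 0.0366. The change in the thinned share for Hsph1 ranged from -0.0060 to 0.0639 percentage points. Of the other alternatives, 692 values of single genes kept direction and side of the threshold, 53 lost the call and 15 gained it.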
